A study of Mus musculus with 10 samples.

Results

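The regions described here are the listed ATAC-seq regions nearest to 3 genes of calcium uptake, Atp2a2, Atp2a1 and Pln. A listed region belongs to a gene when its 500 bp bin has that gene's body as the nearest among 21900 protein-coding RefSeq genes of GRCm38. Of 5327 listed regions, 25 met this rule: 21 at Atp2a2, 2 at Atp2a1 and 2 at Pln. ATAC-seq marks open chromatin by letting a transposase cut and tag accessible DNA. Nuclei came from left and right atria, pooled for each mouse of 8 to 12 weeks, and were sorted for PCM1, a centriolar satellite protein used to mark cardiomyocyte nuclei. There were 4 Prrx1(R1A)-/- animals with 1 library each, and 4 control animals with 6 libraries, since controls 1 and 3 had a repeat library each. The labels call the other genotype control and say no more of it, and they do not give the bounds of the R1A allele. A count from sorted nuclei pools many nuclei, so fewer nuclei with a region open and less opening per nucleus cannot be told apart.

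Contraction of the heart begins when calcium leaves the sarcoplasmic reticulum, and relaxation needs that calcium to be pumped back. The pump is SERCA, a calcium ATPase of the reticulum membrane. Atp2a2 encodes SERCA2, the form of heart muscle, and Atp2a1 encodes SERCA1, best known from fast skeletal muscle. Pln encodes phospholamban, a small membrane protein that slows SERCA2 until protein kinase A or CaM kinase phosphorylates it.

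Most of the chromatin near these genes that the authors listed was less accessible in Prrx1(R1A)-/- atria. Of the 25 regions, 22 were lower and 3 were higher, against 33.3% lower and 66.7% higher among all listed regions. The Atp2a2 regions were lower in 20 of 21 cases, both Pln regions were lower, and both Atp2a1 regions were higher. Every listed region had passed the authors' threshold on these same libraries, so these counts describe a selected table. Regions that did not pass are not in the table.

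Reads are given as scaled reads per bin, that is, reads divided by a factor for each animal. The factors place no change where the authors' own fold changes cross 0, which is called the authors' scale below. All log2 differences are Prrx1(R1A)-/- minus control, with the standard error from edgeR. Only the point of no change was matched, and the sizes are larger than the authors'. Medians were -0.98 against the authors' -0.80 over listed lower regions, and 1.00 against 0.81 over listed higher ones. The alternative scales tried, TMM factors and total reads in listed bins, both lowered the log2 differences. They could therefore undo the 3 higher calls but not the 22 lower ones. No scale that raises the differences was tried. TMM factors take most regions as unchanged. Only called regions are listed, 66.7% of them higher, so they do not meet this assumption, and TMM is an alternative scale here. Without the uncalled regions, neither scale could be checked. With TMM factors, log2 differences were 0.60 lower in the median. EdgeR then called 22 member regions lower and 0 higher, where 33.3% and 18.5% of all listed regions were called. With total reads in listed bins as the scale it again called 22 lower and 0 higher, against 33.3% and 47% of all. Keeping regions with an authors' adjusted p under 0.01 left 9 lower members, all at Atp2a2, and 0 higher, against 14.5% and 36.3% of all. Leaving out 1 animal at a time kept 22 and 3, against 33.2% to 33.3% lower and 66.6% to 66.7% higher of all.

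The listed bins held 272223 to 521778 reads in each Prrx1(R1A)-/- animal and 151976 to 736607 in each control animal, sums that are not the sequencing depth. The 2 listed regions nearest to Prrx1 held 5 and 13 reads over the Prrx1(R1A)-/- animals, against 284 and 298 reads over the controls. Of 9 cardiomyocyte markers, 6 had listed regions, 30 lower and 21 higher, against 33.3% lower and 66.7% higher of all listed regions. Of these, 15 lower ones were at Ryr2 and 14 higher ones at Ttn, and Pcm1 itself had 1 lower region. The marker lists of fibroblasts, endothelium, smooth muscle and immune cells had 16 listed regions, 5 lower and 11 higher. This is near the shares of all listed regions. Lower and higher regions numbered 0 and 2 for fibroblasts and 3 and 2 for endothelium. They numbered 2 and 4 for smooth muscle and 0 and 3 for immune cells. A table of changed regions does not give the level of a marker that did not change. The part of other cell types in the values below was not tested.

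The sequences shown are the 250 bases before the start site of Pln and of Atp2a1 in RefSeq (GRCm38.p6), 5′ to 3′ on the gene's strand. They are shown because listed regions stand beside both windows and none overlaps either. Atp2a2 had no entry in the promoter table. Capitals mark matches to 7 motifs searched on both strands.
Pln, chr10:53337436-53337685, plus strand: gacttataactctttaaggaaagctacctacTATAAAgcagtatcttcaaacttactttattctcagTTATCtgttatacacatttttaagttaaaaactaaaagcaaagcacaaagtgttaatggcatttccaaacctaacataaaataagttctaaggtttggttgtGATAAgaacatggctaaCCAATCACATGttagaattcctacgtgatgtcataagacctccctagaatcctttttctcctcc
Atp2a1, chr7:126463074-126463323, minus strand: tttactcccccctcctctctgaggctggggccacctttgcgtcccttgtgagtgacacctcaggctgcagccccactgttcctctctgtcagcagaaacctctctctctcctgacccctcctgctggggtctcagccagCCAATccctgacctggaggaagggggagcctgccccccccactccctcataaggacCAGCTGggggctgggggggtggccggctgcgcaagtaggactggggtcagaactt

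Both windows held 1 CCAAT box (CCAAT), found in 33.8% of 32851 promoter windows of this length, and 1 E-box (CANNTG), found in 66.2%. In Pln the CCAAT box began 64 bases before the start site and the E-box, CACATG, followed 59 bases before it. In Atp2a1 the CCAAT box began 111 bases and the E-box, CAGCTG, 55 bases before the start site. Pln also held 2 GATA sites (GATAA, 22.6% of windows), at 81 and 183 bases, and 1 TATAAA, at 219 bases (12.4% of windows). Neither window held MCAT (CATTCC, 12.6%), a MEF2 site (0.508%) or a CArG box (1.47%). The windows differed in base composition, with 32.8% G and C in Pln and 64.0% in Atp2a1, around a median of 52.4% over all windows. A match describes the letters only. The listed region nearest to the Pln window ended 185 bases before it, and the nearest to the Atp2a1 window stood 1177 bases from it.

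At Atp2a2, 20 of the 21 listed regions were less open in Prrx1(R1A)-/- atria. The gene covers 48.7 kb of chromosome 5 (122453513 to 122502225, mm10). Its 21 regions are numbered here by coordinate: 1 and 2 lie before the lower-coordinate end, 3 to 19 have their bin inside the gene, and 20 and 21 lie past the higher-coordinate end. Which end carries the start site is not given here, so closeness to either end does not place a region at the promoter. Summed over the 20 lower bins, Prrx1(R1A)-/- animals 1 to 4 had 1936, 1806, 1959 and 2265 scaled reads, and control animals 1 to 4 had 3309, 3108, 3229 and 3359. Every Prrx1(R1A)-/- animal was below every control, and the mean was 1991 ± 194 in Prrx1(R1A)-/- atria against 3251 ± 109 in control atria (SD, n = 4 each), or 61.2% of control.

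The losses were spread rather than gathered at one point. Listed regions covered 39.0% of the gene body, against a median of 1.80% over the 119 genes with at least 5 listed regions. Atp2a2 ranked 5 of these 119 genes by covered share, after Tpm1, Gadd45b, Gja1 and Actc1, and 2 by number of lower regions, after Pam. The covered share depends on gene length. Ryr2, also with 21 listed regions, spans 553.85 kb and had 1.81%, while Gadd45b spans 2.1 kb and had 66.7%. Of the 17 regions inside the gene, 12 lay nearer the lower-coordinate end and 5 nearer the other. Of 20 gaps between neighbouring regions, 10 were at most 1 kb. The widest, 13.0 kb, held the higher-coordinate end of the gene: no listed region lay from 3.7 kb inside that end to 9.3 kb past it.

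**Figure D1:**
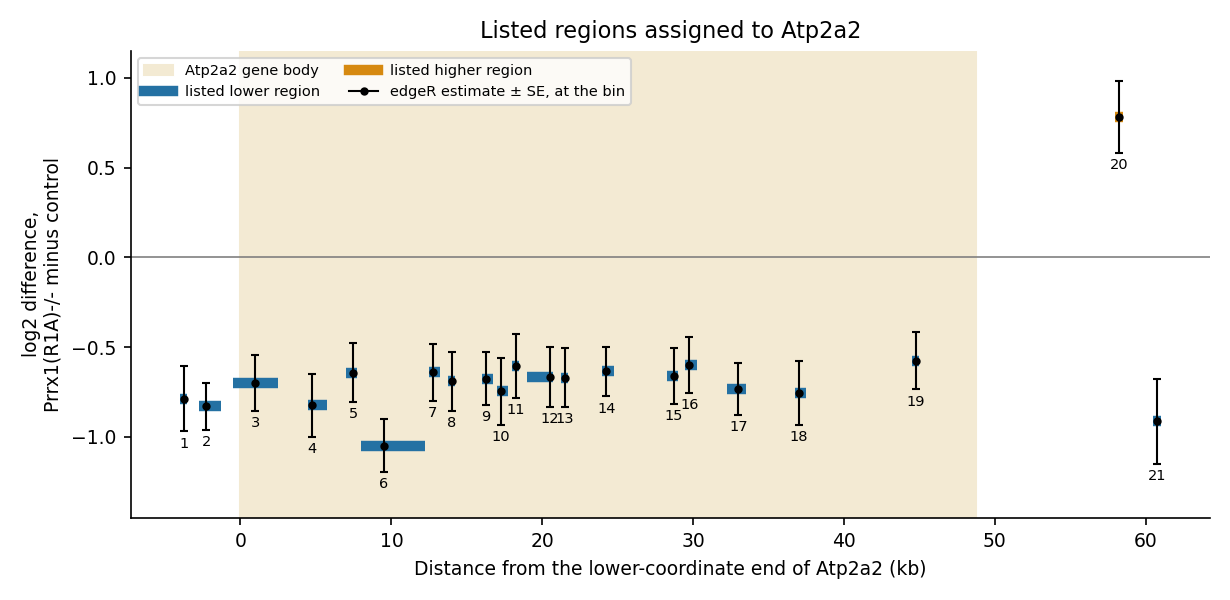
Position of the 21 listed regions assigned to Atp2a2 (horizontal, kb from the lower-coordinate end of the gene) against the edgeR log2 difference in scaled reads, Prrx1(R1A)-/- minus control (vertical; points with SE at the bin, bars the merged region, numbers by position). The 20 lower regions sit between -1.05 and -0.58, and the single higher region, 20, lies 9.3 kb past the gene.

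The losses at the lower Atp2a2 regions lay within a limited range, which the authors' threshold bounds on the side of small changes. Their log2 differences ran from -1.05 to -0.58 with a median of -0.68, and had an SD of 0.12 among regions. The median standard error of a single region was 0.16, which includes spread among animals and does not measure spread among regions. Over all 1776 listed lower regions the median was -0.98 and the SD 0.29. The bins inside the gene were among the most read of the table: in controls their means stood between percentiles 87.7 and 97.5 of all listed bins. Among the 448 listed lower regions with a control mean of at least 100 scaled reads the median was -0.81, with quartiles at -0.96 and -0.70. The 18 Atp2a2 regions among them had a median of -0.67. On the authors' deposited scale, region 19 changed by -0.55 log2, with 34 listed lower regions having smaller changes. The smallest change in the authors' deposited table among lower regions was -0.46.

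Region 6, inside Atp2a2 (chromosome 5, 122461501 to 122465750), was the widest of the 21 at 4250 bp and had the largest loss. It held 96.4, 92.4, 113 and 120 scaled reads in Prrx1(R1A)-/- animals 1 to 4, against 216, 209, 207 and 235 in controls 1 to 4. The groups were far apart, with 120 as the highest Prrx1(R1A)-/- value and 207 as the lowest control value. The log2 difference was -1.05 ± 0.15 (SE; edgeR adjusted p = 1.84e-06). Measured within each animal, region 6 held 5.24%, 5.39%, 6.15% and 5.59% as many reads as the other 19 lower bins in Prrx1(R1A)-/- animals, against 6.998%, 7.22%, 6.83% and 7.53% in controls. This ratio needs no scale between libraries, and its groups did not overlap. It was computed for region 6 because that region had the largest loss, so it is a description with no test.

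Just outside the lower-coordinate end, region 2 (122450751 to 122452250, its bin 2.0 kb from the gene) was the most accessible of all 21. It held 185, 184, 217 and 230 scaled reads in Prrx1(R1A)-/- animals, against 359, 329, 339 and 414 in controls. In controls it stood at percentile 99.7 of all listed bins, and the log2 difference was -0.83 ± 0.13 (SE; edgeR adjusted p = 7.05e-06). Its neighbour, region 1 (122449501 to 122450000), held 55.2, 46.7, 53.9 and 48.3 scaled reads in Prrx1(R1A)-/- animals, against 89.7, 87.0, 85.8 and 91.9 in controls. Animals of a group differed little there, with SDs of 4.14 and 2.73, and the log2 difference was -0.79 ± 0.18 (SE).

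Inside the gene, region 4 (122458001 to 122459250) held 71.0, 72.6, 97.4 and 127 scaled reads in Prrx1(R1A)-/- animals, against 155, 158, 146 and 182 in controls. The groups did not overlap, although Prrx1(R1A)-/- animal 4 came within 20 reads of the lowest control. The log2 difference was -0.82 ± 0.18 (SE; edgeR adjusted p = 0.000184). Region 17 (122485751 to 122487000) held 114, 106, 106 and 115 in Prrx1(R1A)-/- animals, against 209, 179, 176 and 165 in controls. Its Prrx1(R1A)-/- values were the closest together of the named regions inside the gene (SD 4.82), and the log2 difference was -0.73 ± 0.15 (SE). Region 18 (122490251 to 122491000) held 75.3, 74.5, 77.6 and 53.3 in Prrx1(R1A)-/- animals, against 136, 136, 106 and 106 in controls. Here Prrx1(R1A)-/- animal 4 was the low one and the log2 difference was -0.75 ± 0.18 (SE).

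The other 13 lower Atp2a2 regions, all with their bin inside the gene, ranged from 50.7 to 157 scaled reads per animal in Prrx1(R1A)-/- atria and from 103 to 228 in control atria. Their log2 differences lay between -0.75 and -0.58, with edgeR adjusted p between 0.000217 and 0.00201. In 12 of these 13 no Prrx1(R1A)-/- animal reached a control, and over all 20 lower regions this held for 19. It held for 29.6% of all listed regions in the lower direction and 60.4% in the higher direction. Among listed lower regions it held for 88.8%, so the share at Atp2a2 is close to that of the table. The exception was region 11 (122471501 to 122472000), where Prrx1(R1A)-/- animals held 74.5, 74.5, 71.9 and 117 scaled reads and controls 122, 132, 135 and 115.

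Animals did not contribute alike within the Prrx1(R1A)-/- group. Animal 4, the one with the fewest reads in listed bins of that group, was the highest of its group at 14 of the 20 lower regions, and animal 2 was the highest at 0. On average animal 4 stood 0.20 log2 above its group mean at these regions, against 0.03 over all listed lower regions. Controls were more even, with the highest value spread over controls 1 to 4 as 4, 4, 4 and 8 regions. The 2 repeat libraries of control 1 held 0.961% each of their listed reads in the 20 bins, and those of control 3 held 0.934% and 0.948%.

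**Figure D2:**
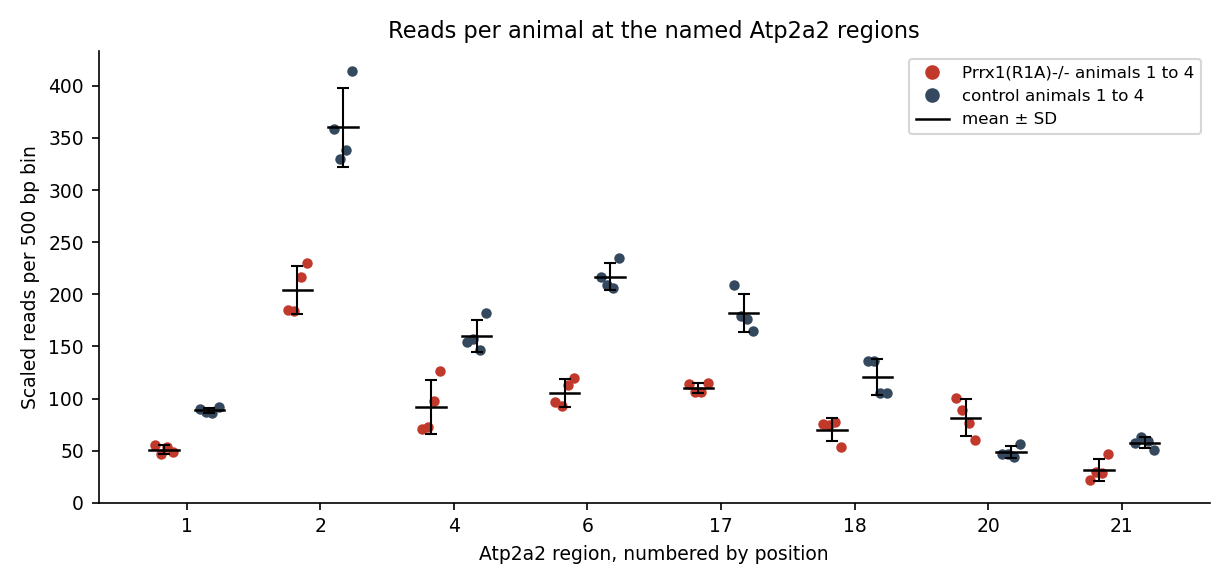
Scaled reads per 500 bp bin (vertical) in each animal at the 8 Atp2a2 regions described by animal (horizontal, numbered by position), Prrx1(R1A)-/- at the left of each pair and control at the right, points in the order of animals 1 to 4, with mean and SD. Groups do not overlap at any of the 8, and region 20 is the one where Prrx1(R1A)-/- animals are higher.

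Past the higher-coordinate end, 2 listed regions moved in opposite directions 2.0 kb apart. Region 20 (122511501 to 122512000, 9.3 kb from the gene) held 101, 89.4, 76.6 and 60.0 scaled reads in Prrx1(R1A)-/- animals, against 47.0, 47.1, 43.8 and 56.6 in controls. Prrx1(R1A)-/- animals were higher, with animal 4 only just above the highest control. The log2 difference was 0.78 ± 0.20 (SE; edgeR adjusted p = 0.000744). With TMM factors it was 0.18 and not called (edgeR adjusted p = 0.419).

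Region 21 (122514001 to 122514500, 11.8 kb from the gene) held 21.9, 29.8, 28.4 and 46.7 scaled reads in Prrx1(R1A)-/- animals, against 57.5, 63.5, 59.7 and 50.3 in controls. It was the least read of the 20 lower regions, and its log2 difference was -0.91 ± 0.24 (SE; edgeR adjusted p = 0.000795). The region overlaps the long noncoding RNA gene 1700040P09Rik (122514005 to 122516582) by 496 bases, and Atp2a2 is its nearest protein-coding gene. Nearness does not show that either region acts on Atp2a2.

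Accessibility was lower at Pln too. The gene spans 8.3 kb of chromosome 10 (53337686 to 53345999) and lies within the longer gene Cep85l (53273441 to 53379883), which is read from the opposite strand. Summed over its 2 bins, Prrx1(R1A)-/- animals held 82.3, 90.4, 143 and 110.0 scaled reads, against 168, 193, 220.1 and 198 in controls. The mean was 106 ± 26.9 in Prrx1(R1A)-/- atria and 195 ± 21.4 in control atria (SD, n = 4 each), or 54.7% of control. Set against Atp2a2 within each animal, the Pln bins held 4.25%, 5.01%, 7.29% and 4.86% as many reads as the lower Atp2a2 bins in Prrx1(R1A)-/- animals, against 5.07%, 6.21%, 6.81% and 5.88% in controls. These ranges overlap.

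Region 1 of Pln (53339251 to 53342250), 3000 bp wide, held 37.7, 58.6, 80.4 and 38.3 scaled reads in Prrx1(R1A)-/- animals, against 89.2, 118, 114 and 93.1 in controls. The Prrx1(R1A)-/- animals were spread widely (SD 20.3), yet all were below the controls. The log2 difference was -0.91 ± 0.21 (SE; edgeR adjusted p = 0.000403). Region 2 of Pln (53342501 to 53343000) held 44.7, 31.8, 62.4 and 71.7 in Prrx1(R1A)-/- animals, against 78.7, 75.3, 106 and 104 in controls. Its groups came close, with 71.7 as the highest Prrx1(R1A)-/- value and 75.3 as the lowest control, and the log2 difference was -0.84 ± 0.22 (SE; edgeR adjusted p = 0.000825).

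The rule on bins cuts through a longer stretch of loss at Pln. Within 5 kb of the gene there were 5 listed regions, all lower and none with overlapping groups, near the 88.8% of all listed lower regions whose groups do not overlap. Of the 5, 3 have their bin nearest to Cep85l because Pln sits inside that gene. The largest loss of the 5 was in one of these (53343251 to 53347250), which overlaps the last 2749 bases of Pln while its bin lies 0.3 kb past the end. Its bin held 86.7, 79.5, 113 and 117 scaled reads in Prrx1(R1A)-/- animals, against 212, 226, 210.3 and 272 in controls. The lowest control, 210.3, stood far above the highest Prrx1(R1A)-/- animal, 117, and the log2 difference was -1.22 ± 0.16 (SE; edgeR adjusted p = 7.03e-07). A region that ended 0.4 kb before the start of Pln (53335001 to 53337250) changed by -0.93 ± 0.20 log2 (SE), and one 1.5 kb past its end (53347501 to 53348250) by -0.88 ± 0.21 log2 (SE). From 1.6 kb inside the gene to the last of these, neighbouring regions were 0.25 kb apart. The widest gap between the 5, 2.0 kb, held the start site and the promoter window printed above.

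**Figure D3:**
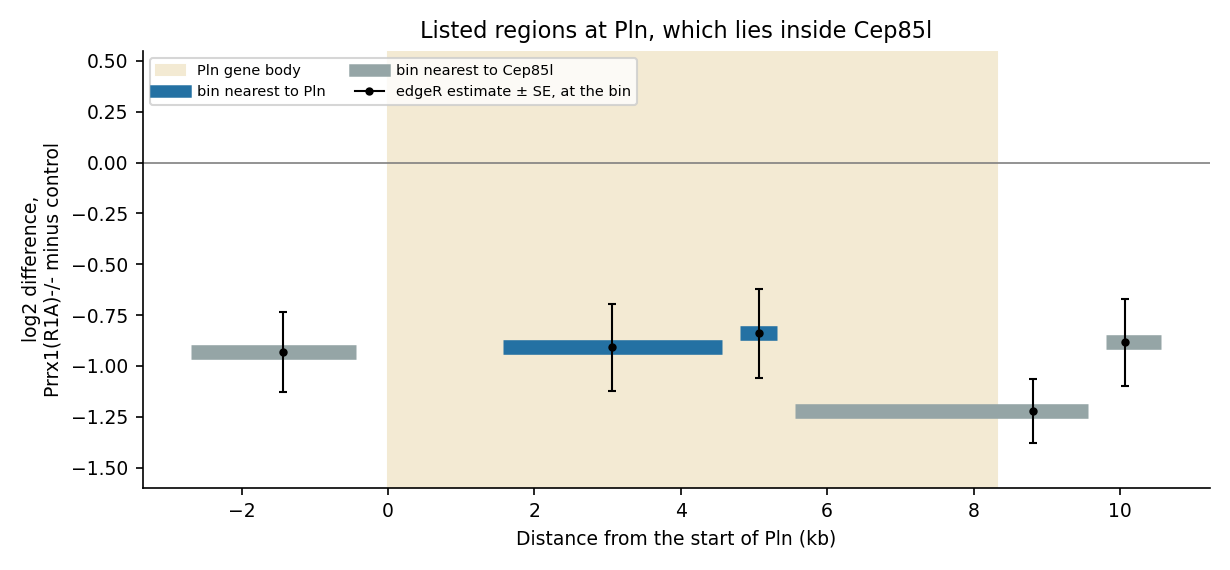
Position of the 5 listed regions within 5 kb of Pln (horizontal, kb from the start of Pln) against the edgeR log2 difference in scaled reads, Prrx1(R1A)-/- minus control (vertical; points with SE at the bin, bars the merged region, coloured by the gene nearest to the bin). All 5 lie between -1.22 and -0.84, the largest loss being at the far end of Pln.

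Atp2a1, the skeletal muscle pump gene, went the other way. Its 17.2 kb lie on chromosome 7 (126445858 to 126463103), and its 2 regions are 500 bp wide. Summed over both, Prrx1(R1A)-/- animals held 102, 116, 155 and 125.0 scaled reads, against 78.1, 61.2, 61.5 and 79.3 in controls. The mean was 124.5 ± 22.6 in Prrx1(R1A)-/- atria and 70.0 ± 10.03 in control atria (SD, n = 4 each), or 178% of control. In controls the bins stood at percentiles 20.9 and 41.1 of all listed bins, far below those inside Atp2a2. Their control means were 27.4 and 42.6 scaled reads, where listed higher regions had a median of 38.9. In Prrx1(R1A)-/- atria they stood at percentiles 37.0 and 58.7, beside 40.6 and 39.3 for the Pln bins.

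Region 1 of Atp2a1 (126458251 to 126458750), inside the gene, held 42.9, 46.7, 62.4 and 49.999 scaled reads in Prrx1(R1A)-/- animals, against 28.0, 23.5, 24.2 and 34.0 in controls. Groups did not overlap and the log2 difference was 0.88 ± 0.24 (SE; edgeR adjusted p = 0.00107). Region 2 (126464501 to 126465000), 1.4 kb past the gene end that carries the start site, held 58.7, 69.6, 92.7 and 74.999 in Prrx1(R1A)-/- animals, against 50.1, 37.6, 37.3 and 45.3 in controls. Its log2 difference was 0.78 ± 0.21 (SE; edgeR adjusted p = 0.00106). With TMM factors the regions changed by 0.28 and 0.18 and neither was called (edgeR adjusted p = 0.300 and 0.439). Groups did not overlap at 90.6% of all listed higher regions, so separation of the groups here is near that of the table. On a list of 8 genes for fast skeletal muscle, Myh4, Myh1, Actn3, Tnnt3, Tnni2, Mylpf and Pvalb had 0 listed regions. Ckm, which is not specific to that muscle, had 3 lower.

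**Figure D4:**
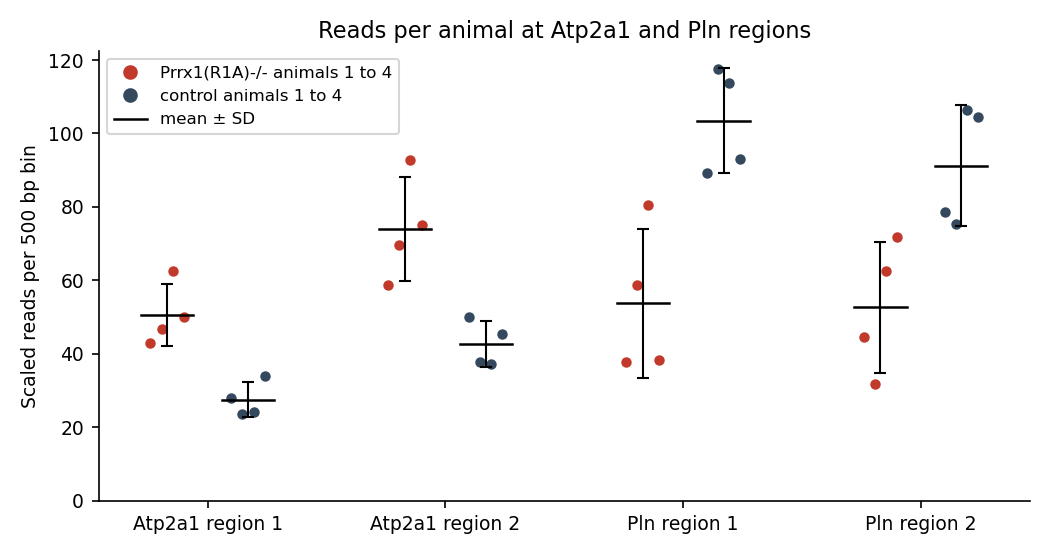
Scaled reads per 500 bp bin (vertical) in each animal at the 2 Atp2a1 and 2 Pln regions (horizontal), Prrx1(R1A)-/- at the left of each pair and control at the right, points in the order of animals 1 to 4, with mean and SD. Prrx1(R1A)-/- animals lie above controls at Atp2a1 and below them at Pln, with no overlap at any of the 4.

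Ratios of reads within an animal need no scale between libraries. For each animal the reads of the higher regions were set against the reads of the 20 lower Atp2a2 bins. Atp2a2 region 20 held 5.20%, 4.95%, 3.91% and 2.65% of that number in Prrx1(R1A)-/- animals, against 1.42%, 1.51%, 1.36% and 1.69% in controls. The Atp2a1 bins held 5.25%, 6.44%, 7.92% and 5.52% in Prrx1(R1A)-/- animals, against 2.36%, 1.97%, 1.91% and 2.36% in controls. Both shares were higher in every Prrx1(R1A)-/- animal than in any control. A ratio of this kind shows unequal change, and does not tell how much of it came from either side. The bins compared are ones the authors' table lists as higher and as lower on these same libraries, which fixes the direction of both ratios. They are given as a description, with no test.

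**Figure D5:**
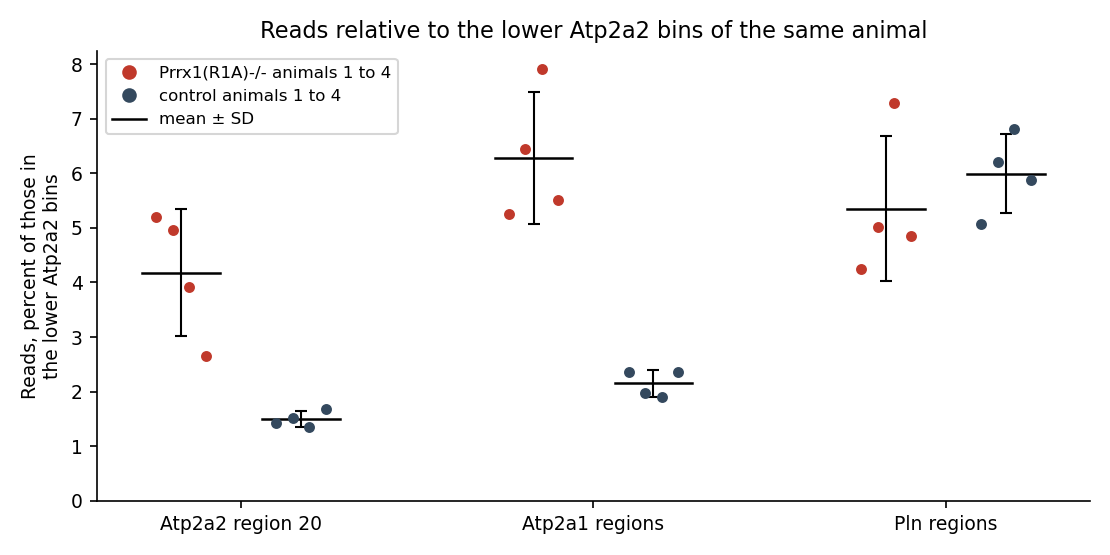
Reads at Atp2a2 region 20, the 2 Atp2a1 regions and the 2 Pln regions as a percentage of the reads in the 20 lower Atp2a2 bins of the same animal (vertical), by set of regions (horizontal), Prrx1(R1A)-/- at the left and control at the right, with mean and SD. The groups are apart for region 20 and Atp2a1 and overlap for Pln.

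Other genes that act on the pump or share its calcium were drawn from a list of 48 genes, of which 47 were found in RefSeq and 18 had a listed region. They had 66 lower and 25 higher regions, against 33.3% lower and 66.7% higher among all listed regions. By gene the list was even: 7 of the 18 had lower regions only and 7 had higher regions only. Most of the lower regions were at Jph2 (17), Ryr2 (15), Trdn (15) and Akap6 (10), so the region count reflects few genes. On the authors' scale edgeR called nearly every listed region, so its calls do not set these genes apart. With TMM factors, which called 18.5% of all listed regions higher, the higher calls among these 25 were 1 each at Slc8a1, Camk2d and Pde4d. Among regulators of uptake, 1 of 7 genes found had a listed region. This was Sln, which encodes sarcolipin, an inhibitor of SERCA that is abundant in atria. The Sln region (chromosome 9, 53834751 to 53835500, 15.0 kb from the gene) held 190.1, 179, 203 and 215 scaled reads in Prrx1(R1A)-/- animals, against 126, 108, 119 and 123 in controls. It was higher in every Prrx1(R1A)-/- animal, with a log2 difference of 0.71 ± 0.14 (SE; edgeR adjusted p = 9.84e-05), and was not called with TMM factors (0.11, edgeR adjusted p = 0.486).

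Genes of calcium storage and release had 48 lower and 13 higher regions over 7 of 18 genes, most of the lower ones at Jph2 (17), Ryr2 (15) and Trdn (15). The higher ones were at Ryr2 (6), Itpr1 (5), Asph (1) and Jph1 (1, 111 kb from the gene), and 0 of them were called higher with TMM factors. Itpr1 encodes an inositol trisphosphate receptor, another release channel. Ryr2 encodes the release channel, triadin from Trdn binds it, and junctophilin from Jph2 holds the reticulum near the surface membrane. Removal of calcium from the cytosol, apart from SERCA2, had 2 lower and 4 higher regions over 4 of 5 genes. Atp2a3, the third SERCA gene, best known from nonmuscle cells, had 1 higher region 14.7 kb away, with 54.1 ± 12.9 scaled reads in Prrx1(R1A)-/- atria and 25.4 ± 4.66 in control atria (SD, n = 4 each). Its log2 difference was 1.01 ± 0.24 (SE), and with TMM factors 0.42 and not called (edgeR adjusted p = 0.154). Kinases, phosphatases, anchors and phosphodiesterases of the pathway that controls phospholamban had 16 lower and 7 higher regions over 6 of 17 genes. Akap6, an anchor of protein kinase A, had 10 lower regions, and Prkar1a, a regulatory subunit of that kinase, had 2 lower. Akap7, which encodes an anchor that brings the kinase to phospholamban, had 2 higher regions, of which 0 were called higher with TMM factors. The Akap7 region with the larger change lay 107 kb from the gene. Camk2d, the main CaM kinase of the heart, had 3 higher and 1 lower, and 1 of the 3 was called higher with TMM factors. Pde3a, a phosphodiesterase that breaks down cyclic AMP, had 1 lower region with 26.8 ± 12.3 scaled reads in Prrx1(R1A)-/- atria and 87.0 ± 26.5 in control atria (SD, n = 4 each).

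The genes most like Atp2a2 over the 8 animals were Ldb3, Cacnb2, Mfn2, Arhgap21 and Kcnd2. Likeness was the root mean square difference between log2 reads summed over all listed bins of a gene, after subtracting the control mean, among 118 other genes with at least 5 listed regions. It was 0.09 log2 for Ldb3, a Z-disc protein, and 0.12 for Cacnb2, a calcium channel subunit, against a median of 0.95 over the 118 genes. The Ldb3 values were -0.75, -0.89, -0.67 and -0.57 log2 in Prrx1(R1A)-/- animals 1 to 4, beside -0.70, -0.80, -0.70 and -0.50 for Atp2a2. Both genes were lowest in animal 2 and highest in animal 4. The measure mixes the difference between groups with the spread among animals and is given as a description. The 118 genes include ones that changed in the other direction, such as Gadd45b with 0 lower and 5 higher regions. Their median is therefore no measure of likeness among genes with lower regions, which was not computed.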

How the data were processed

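Per the submitters' processing notes, reads were handled with BWA, bedtools and DESeq2 on mm10, whose versions and roles they do not give. The labels' protocols give paired reads of 150 bp. The authors' deposited table lists 5327 merged regions, each with read counts of a 500 bp bin. The authors' deposited values are treated as estimated counts, since 17 of them read 0.1 and none reads 0. They were rounded to whole numbers. The deposited signal per group is a geometric mean of the counts over libraries. The deposited log2 fold change is control over Prrx1(R1A)-/-, and its sign was turned here. Each deposited p-value is an adjusted one, none above 0.04999. Read shifting for the transposase and duplicate removal are not stated.

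Controls 1 and 3 had a repeat library each, which was summed with the first. Between repeats, chi-square over its degrees of freedom was 1.83 and 1.7, and between control animals it was 2.17 to 3.4. Within a group, library factors were median ratios. Between groups, the scale was the point at which the authors' log2 fold change crosses 0 in a regression on the log2 ratio of geometric means (1432 regions with both means at least 50, slope 0.874), which was 0.142 log2. All 5327 regions were fitted with edgeR 4.0.16 (R 4.3.3; glmQLFit, glmQLFTest, filterByExpr, which removed 1 region) and p-values were adjusted by Benjamini-Hochberg over the table at 0.05. The SE is the log2 difference divided by the root of the F statistic. These p-values concern regions already selected on the same libraries. The edgeR step was tested on simulated counts in which most regions were unchanged and the scale was given. That setting differs from a table of called regions, so it gives no error rate for these data. Alternatives were TMM factors, total reads in listed bins, DESeq2 1.42.0, no filter, 1 library per animal, a replicate block, each animal left out, other assignments and a stricter authors' threshold.

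The members and lists were chosen with earlier results of these data known. Values by animal are given for every Atp2a1 and Pln region, for Atp2a2 regions that are higher and for the 8 Atp2a2 regions with the largest change in the authors' table. Region 11 of Atp2a2, the Pln neighbours and the regions of Sln, Atp2a3 and Pde3a were added after their values were seen. Intervals and errors cover the spread among animals and counting only.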

Additional observations from a re-analysis of the deposited data

Results flagged for a closer look

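In 2 of 50 sets of 4 animals (25 regions, each group), a single animal stood far from the others by Dixon's test, and chance gives about 1 in 20 sets. At Atp2a2 region 11, Prrx1(R1A)-/- animal 4 had 116.7 scaled reads, against 71.9 to 74.5 in the other Prrx1(R1A)-/- animals. At Atp2a2 region 18, the same animal was the low one, with 53.3 scaled reads against 74.5 to 77.6.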

How the results depend on the processing

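The 22 lower calls stayed at 22 with TMM factors, total reads in listed bins, DESeq2, no filter, 1 library per animal, bins within 50 kb of the gene and the replicate block. TMM factors and total reads lowered the log2 differences, so these settings could not remove a lower call. Assignment by merged region gave 23, the added region being at Pln. With the authors' adjusted p under 0.01 there were 9 lower regions, all at Atp2a2, and 0 higher. The 3 higher calls fell to 0 with TMM factors and to 0 with total reads in listed bins. With total reads, summed reads differed by -1.07 log2 at Atp2a2, 0.43 at Atp2a1 and -1.29 at Pln, and with the median TMM shift by -1.27, 0.23 and -1.49, against -0.67, 0.82 and -0.90 on the authors' scale. All 12 regions given by animal kept their direction under every alternative, and the 9 lower ones kept their calls. Leaving out any 1 of the 8 animals changed no call of these 12 regions. Deviations of animals with the same number correlated between -0.04 and 0.26, the highest value being that of the animals numbered 1. Correlations between animals of different number ran from -0.15 to 0.08. The check therefore cannot decide whether the numbers pair animals, since the value for number 1 lies outside that range. The replicate block left 22 lower and 3 higher calls. Bins of Atp2a1 held 10 to 98 reads per animal, which limits its precision more than that of Atp2a2.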
